A study of Homo sapiens with 11 samples.

Results

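The genes of this section are the insulin-like growth factor (IGF) family as far as it was set out for these data, namely the 7 IGF-binding proteins IGFBP1 to IGFBP7, the receptors IGF1R and IGF2R, and the ligand IGF2. All 10 symbols were present in both count tables, among 26485 symbols in each. The list was chosen from the measured differences between ODC and CTRL at 24 h and 2 h, IGFBP3 at 24 h above all, so the values of its members are given as a description and carry no test. Counts of members past a threshold are printed beside the share of all genes past the same threshold, and nothing is read from them.

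The RNA came from clone 1 of Caki-1-SR, a line derived from the human clear cell renal cell carcinoma line Caki-1 (from a skin metastasis) that tolerates sunitinib, a receptor tyrosine kinase inhibitor. All groups came from this 1 clone, grown in medium that holds 1 µM sunitinib. The treated groups received an optimized drug combination (ODC) made of the ruthenium compound Rapta-C (2 µM), the EGFR kinase inhibitor erlotinib (1 µM), the biguanide metformin (1 µM) and the plant sesquiterpene lactone parthenolide (5 µM). The control groups (CTRL) received none of the 4 drugs and are described by the study as untreated or sham-treated. At 24 h there were 3 CTRL libraries (numbered 1, 3 and 5) and 3 ODC libraries (2, 4 and 6). At 2 h there were 2 CTRL libraries (1 and 2) and 3 ODC libraries (3, 4 and 5). Nothing in the labels says whether the libraries of a group are separate cultures, so their spread may be technical. Each time point had its own month in the library names, which do not say what was done in it, and its own scaling. Time and this month cannot be told apart, so levels are compared within a time only.

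The 24 h libraries held 17785229 to 20882856 counts each and the 2 h libraries 25782895 to 31118349. Levels are given as CPM, counts divided by the scaled library total and expressed per 1000000, and 3 counts, taken as the floor, were worth 0.144 to 0.166 CPM in the 24 h libraries and 0.0953 to 0.116 CPM in the 2 h libraries. Of the renal markers, PAX8 and VIM were well counted in every library (PAX8 437 to 891 CPM), whereas CA9, a hypoxia target common in clear cell tumours, had at most 1 count and PAX2 at most 4. CTRL library 1 at 2 h stood apart from the other 10. It alone held genes with at least 30 counts that had at most 3 in each other library, 17 in number, among them IGFBP2, IGFBP5, DCN, AEBP1, A2M and HLA-DRA, and 16840 genes were counted in it against 15761 to 15973 in the other 2 h libraries. COL3A1, a fibrillar collagen, had 1081 counts there and at most 6 elsewhere. The 2 h log2 fold changes of the members are therefore given with and without this library, while group means, medians and counts of signs at 2 h include it.

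IGF1 and IGF2 are secreted growth factors that act through IGF1R, a receptor tyrosine kinase which signals through insulin receptor substrates to the PI3K, AKT and mTOR branch. IGF2R, the cation-independent mannose 6-phosphate receptor, binds IGF2 and carries it to lysosomes, and also sorts lysosomal enzymes. The binding proteins hold the ligands outside the cell with high affinity, except IGFBP7, which binds them weakly, and proteases set ligand free by cutting them. IGFBP3 is the main carrier of IGF in blood and also acts on cells without the ligand.

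On hg38 with the GENCODE release 44 annotation all 10 are protein-coding genes. IGFBP1 (chr7:45888360-45893660, plus strand) and IGFBP3 (chr7:45912245-45921874, minus strand) lie tail to tail 18.6 kb apart. IGFBP2 (chr2:216632828-216664436, plus) and IGFBP5 (chr2:216672105-216695549, minus) form a second such pair with 7.67 kb between them. IGFBP4 is at chr17:40443450-40457725, IGFBP6 at chr12:53097436-53102345 and IGFBP7 at chr4:57030773-57110385. The receptors are at chr15:98648539-98964530 (IGF1R) and chr6:159969082-160113507 (IGF2R), and IGF2 is at chr11:2129112-2158391.

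The 250 bases before the RefSeq transcription start (GRCh38.p14, 5′ to 3′ on the gene's strand) are printed for the 3 members whose libraries did not overlap between groups at 24 h, IGFBP3, IGF1R and IGF2R, and for IGFBP4, the member whose libraries of 1 group spread most. Capitals mark matches, on either strand, to any of 6 motifs: the TATA box (TATANA), the GC box (GGGCGG), the E-box (CACGTG), the antioxidant response element core (TGACNNNGC), the AP-1 site (TGANTCA) and the FOXO site (GTAAACA). The IGFBP3 window, chr7:45921273-45921522, lies inside the GENCODE gene in no annotated exon, since 1 transcript starts farther upstream. The IGF1R window is chr15:98648289-98648538, that of IGF2R chr6:159968832-159969081 and that of IGFBP4 chr17:40443200-40443449.
IGFBP3: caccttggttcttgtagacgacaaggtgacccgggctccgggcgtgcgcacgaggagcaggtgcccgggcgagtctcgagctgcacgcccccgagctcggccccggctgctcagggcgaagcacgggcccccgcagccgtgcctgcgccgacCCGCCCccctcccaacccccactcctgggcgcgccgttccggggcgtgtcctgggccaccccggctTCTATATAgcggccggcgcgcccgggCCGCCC
IGF1R: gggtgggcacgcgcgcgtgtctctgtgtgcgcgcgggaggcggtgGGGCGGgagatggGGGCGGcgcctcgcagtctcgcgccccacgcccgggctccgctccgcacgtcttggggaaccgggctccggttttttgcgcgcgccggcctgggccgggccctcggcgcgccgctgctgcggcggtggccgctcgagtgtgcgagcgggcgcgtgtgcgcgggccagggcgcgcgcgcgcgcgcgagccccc
IGF2R: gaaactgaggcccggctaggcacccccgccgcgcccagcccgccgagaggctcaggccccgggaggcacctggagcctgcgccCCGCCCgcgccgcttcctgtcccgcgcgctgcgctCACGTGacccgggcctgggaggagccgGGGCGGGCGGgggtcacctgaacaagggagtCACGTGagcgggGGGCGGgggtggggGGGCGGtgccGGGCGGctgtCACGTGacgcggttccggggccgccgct
IGFBP4: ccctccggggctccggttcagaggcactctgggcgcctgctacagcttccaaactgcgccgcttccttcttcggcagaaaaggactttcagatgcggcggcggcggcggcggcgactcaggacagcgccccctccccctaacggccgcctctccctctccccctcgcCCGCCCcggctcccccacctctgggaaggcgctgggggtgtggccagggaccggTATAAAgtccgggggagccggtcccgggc

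The IGFBP3 window held 2 overlapping TATA box matches close to its 3′ end and 2 GC boxes. That of IGFBP4 held 1 TATA box and 1 GC box. Neither receptor window had a TATA box match, and IGF1R held 2 GC boxes and IGF2R 6 GC boxes and 3 E-boxes. Of all 35116 windows of this length in the RefSeq table, 17.7% held the TATA letters, 42.6% the GC box and 6.34% the E-box. The antioxidant response element core (10.9% of windows), the AP-1 site (6.57%) and the FOXO site (2.98%) had no match in the 4 windows, which says only that these letters are not in them. Of the 10 members, 7 had an entry in this table. IGFBP1, IGFBP7 and IGF2 had none.

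Of the 10 genes, 6 passed the filter on low counts at each time, namely IGFBP3, IGFBP4, IGFBP6, IGFBP7, IGF1R and IGF2R, and each of these was above 10 CPM in every library of both groups. The other 4, IGFBP1, IGFBP2, IGFBP5 and IGF2, were at or near 0 at 24 h. IGF2, the ligand, had 0 counts in all 6 libraries at 24 h. At 2 h it had 9 counts in CTRL library 1, 1 count in ODC library 4 and 0 in the other 3. IGF1, the other ligand and no member of the list, had 0 counts at 24 h and a mean of 0.0193 CPM in CTRL at 2 h. Transcripts of neither ligand were thus detectable above the floor outside CTRL library 1 at 2 h.

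IGFBP1, a binding protein known mainly from liver and decidua, had 2 counts in CTRL library 5 and 0 in the other 5 libraries at 24 h, and 7, 2, 3, 0 and 3 counts in libraries 1 to 5 at 2 h. IGFBP2 had 0 counts in every library at 24 h and in libraries 2 to 5 at 2 h, but 101 counts (3.91 CPM) in CTRL library 1 at 2 h. IGFBP5, which binds to extracellular matrix, had 0 counts in every library at 24 h and, at 2 h, 60 counts (2.32 CPM) in CTRL library 1, 2 in ODC library 4 and 0 elsewhere. All 4 low members were highest in that library, where the fibroblast products DCN (73 counts), THBS2 (47 counts) and COL3A1 were also seen. The part of such cells in these values was not tested, and in bulk RNA fewer cells of a type and less RNA per cell cannot be told apart. Without it no low member exceeded 3 counts in any library. A count of 0 allows up to the floor of 3 counts, so lower levels were not detectable at this depth.

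**Figure D1:**
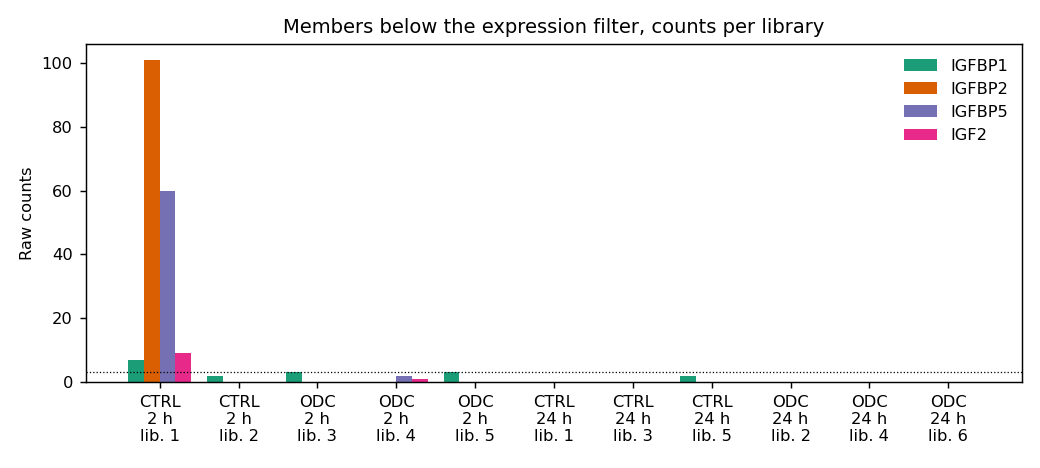
Raw counts (y axis) of IGFBP1, IGFBP2, IGFBP5 and IGF2 in each of the 11 libraries (x axis), with the dotted line at 3 counts. The bars above the line are those of CTRL library 1 at 2 h, with 101 counts for IGFBP2 and 60 for IGFBP5.

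IGFBP3 showed the widest separation of the groups among the 6 expressed members at 24 h. It stood at 114, 117 and 147 CPM in CTRL libraries 1, 3 and 5, and at 413, 731 and 438 CPM in ODC libraries 2, 4 and 6. Every treated library was above every control library, and ODC library 4 was well above the other two. The CTRL mean of 126 ± 18.3 CPM and the ODC mean of 528 ± 177 CPM (SD, n = 3 each) corresponded to a 4.18-fold higher level and a log2 fold change of 2.06 (SE 0.23). With each library left out in turn the log2 fold change stayed between 1.75, without ODC library 4, and 2.21.

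At 2 h the same gene differed more within CTRL than between the groups. Its level was 648 and 311 CPM in CTRL libraries 1 and 2 and 518, 369 and 571 CPM in ODC libraries 3, 4 and 5. The treated libraries all lay between the 2 controls. The log2 fold change was 0.02 (SE 0.29), and it was 0.65 without CTRL library 1 and -0.40 without CTRL library 2, so that its sign at 2 h depends on which control is kept. In the joint fit of all 11 libraries the log2 fold change at 24 h exceeded that at 2 h by 2.02 (SE 0.41), and by 1.41 without CTRL library 1 of 2 h.

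The receptors were higher after 24 h of ODC by smaller factors. IGF1R stood at 121, 167 and 131 CPM in CTRL libraries 1, 3 and 5 and at 202, 263.5 and 186 CPM in ODC libraries 2, 4 and 6. The groups did not overlap, and libraries 3 and 4 were the highest of their groups. Mean levels were 139.8 ± 24.0 CPM in CTRL and 217 ± 40.8 CPM in ODC (SD, n = 3 each), a log2 fold change of 0.64 (SE 0.17) or 1.55-fold, and 0.47 to 0.78 on the log2 scale with each library left out. IGF2R stood at 273.5, 326 and 316 CPM in CTRL and at 333.5, 417 and 442 CPM in ODC libraries 2, 4 and 6. Here the groups were separated narrowly, since the lowest treated library was just above the highest control. The means of 305 ± 27.7 and 397 ± 56.7 CPM (SD, n = 3 each) gave a log2 fold change of 0.38 (SE 0.13), or 1.30-fold, with 0.30 to 0.49 on the log2 scale as libraries were left out.

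Neither receptor was separated between the groups at 2 h. IGF1R measured 123 and 164 CPM in CTRL and 122, 158 and 134 CPM in ODC, a log2 fold change of -0.06 (SE 0.15), which became -0.25 on leaving out CTRL library 1, 0.18 on leaving out CTRL library 2 and 0.02 on leaving out ODC library 3, so that its sign too depends on the libraries kept. IGF2R measured 269 and 312.5 CPM in CTRL and 226, 271.5 and 297 CPM in ODC, a log2 fold change of -0.13 (SE 0.13) and of -0.24 without CTRL library 1. The groups overlapped for both. The log2 fold change at 24 h exceeded that at 2 h by 0.67 (SE 0.25) for IGF1R and by 0.50 (SE 0.20) for IGF2R. Without CTRL library 1 of 2 h these differences were 0.87 and 0.61, and without CTRL library 2 of 2 h they were 0.44 and 0.37.

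**Figure D2:**
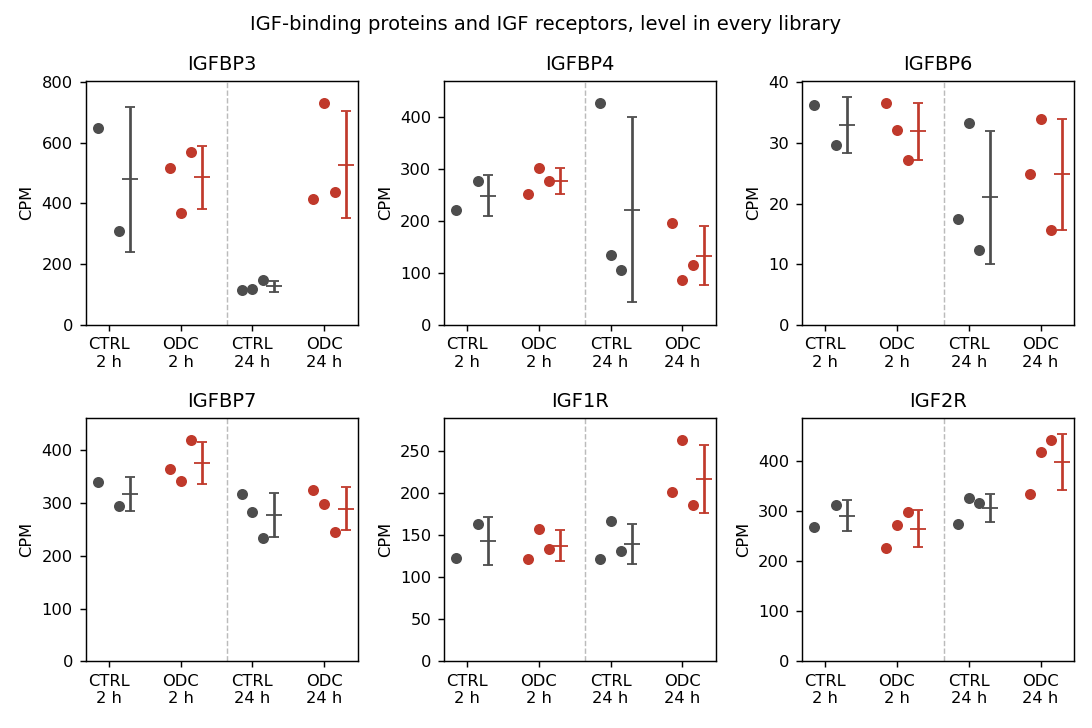
Level in CPM (y axis, from 0) of the 6 expressed members in every library of CTRL (grey points) and ODC (red points) at 2 h and 24 h, with the mean and SD of each group beside its points. IGFBP3 lies at 114 to 147 CPM in CTRL and 413 to 731 CPM in ODC at 24 h, while the 2 h groups overlap.

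IGFBP4, a binding protein that mostly holds IGF back from its receptor and is cut by the protease PAPPA, was uneven among the 24 h controls. Its level was 426, 134 and 105 CPM in CTRL libraries 1, 3 and 5 and 196.5, 86.8 and 115 CPM in ODC libraries 2, 4 and 6. Libraries 1 and 2 were the highest of their groups, and the groups overlapped. The log2 fold change of -0.74 (SE 0.53), between means of 222 ± 178 and 133 ± 57.0 CPM (SD, n = 3 each), was 0.14 without CTRL library 1, so the sign rests on that library. With libraries of adjacent numbers paired as a block, the log2 fold change was -0.54 (SE 0.21). ODC libraries 2 and 4 were below CTRL libraries 1 and 3, and ODC library 6 was above CTRL library 5. At 2 h IGFBP4 stood at 221 and 276 CPM in CTRL and 251, 302 and 277 CPM in ODC, a log2 fold change of 0.15 (SE 0.12), and of 0.0013 without CTRL library 1 of that time.

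IGFBP6, which prefers IGF2 over IGF1, varied more among the libraries than between the groups at 24 h. It was at 17.4, 33.4 and 12.4 CPM in CTRL libraries 1, 3 and 5 and at 24.9, 33.9 and 15.6 CPM in ODC libraries 2, 4 and 6. Libraries 3 and 4 were again the highest of their groups, as for IGF1R. The log2 fold change was 0.24 (SE 0.39) and ran from -0.06 to 0.73 as libraries were left out. Within each pair of adjacent library numbers the ODC library was the higher, and with these pairs as a block the log2 fold change was 0.29 (SE 0.12). At 2 h the levels of 36.3 and 29.7 CPM in CTRL and 36.6, 32.2 and 27.1 CPM in ODC overlapped, with a log2 fold change of -0.05 (SE 0.15), or 0.10 without CTRL library 1 and -0.17 without CTRL library 2.

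IGFBP7, the low-affinity member also found in vascular basement membrane, was the only 1 of the 6 whose groups did not overlap at 2 h. It stood at 340.3 and 295 CPM in CTRL and at 365, 343 and 419.9 CPM in ODC libraries 3, 4 and 5. The lowest treated library was just above the higher control, with a log2 fold change of 0.24 (SE 0.11), or 0.35 without CTRL library 1. At 24 h the levels of 317, 283 and 234 CPM in CTRL and 324, 299 and 245 CPM in ODC overlapped almost completely, with a log2 fold change of 0.06 (SE 0.15). It ran from -0.05 to 0.16 as libraries were left out. As for IGFBP6, the ODC library was the higher within each pair of adjacent library numbers, and the block gave 0.06 (SE 0.06).

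**Figure D3:**
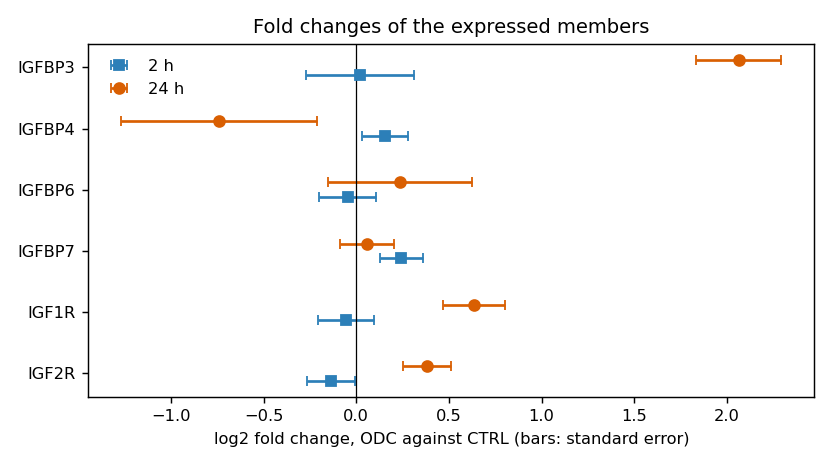
Log2 fold change of ODC against CTRL (x axis) with its standard error (bars) for the 6 expressed members (y axis), at 2 h (blue squares) and 24 h (orange circles). At 24 h IGFBP3 lies at 2.06, IGF1R at 0.64 and IGF2R at 0.38, and the 2 h values run from -0.13 to 0.24.

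Across the 6 expressed members, 5 log2 fold changes were above 0 and 1 below at 24 h, with a median of 0.31 against 0.00088 over all 12689 genes tested. At 2 h 3 were above and 3 below, with a median of -0.013 against -0.0060 over 13332 genes. By the call rule of the study, which asks for at least a 2-fold difference and an adjusted p under 0.05 (edgeR's quasi-likelihood test, Benjamini-Hochberg adjustment), 1 member was called at 24 h, IGFBP3, where 0.165% of all genes were called. At 2 h no member was called, nor was any gene (0%), by the quasi-likelihood test. Before adjustment its p was below 0.05 for no member at 2 h, beside 2.34% of all genes. At 24 h it was for 3 of 6, all higher in ODC, beside 12.2% of all genes. DESeq2 called no member at 2 h either, and 1 of all 13332 genes. The groups did not overlap for 3 of 6 members at 24 h, all higher in ODC (17.9% of all genes, either direction), and for 1 of 6 at 2 h (15.3%). Without the fold criterion, 1 member passed the adjusted threshold at 24 h (IGFBP3), 2 did with DESeq2 (IGFBP3 and IGF1R) and 3 did with the pairs of adjacent library numbers as a block (IGFBP3, IGF1R and IGF2R). Of all 12689 genes, 24 passed this threshold in the main fit, 378 with DESeq2 and 686 with the block. With the 2-fold criterion added, 21 of all genes passed without the block and 176 with it. Since the 24 h contrast was used to choose the members, these counts describe them and no more. The call of IGFBP3 was lost with any 1 of CTRL libraries 1, 3 and 5 or ODC library 2 left out, settings in which only 2 to 12 of all genes were past the adjusted threshold.

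**Figure D4:**
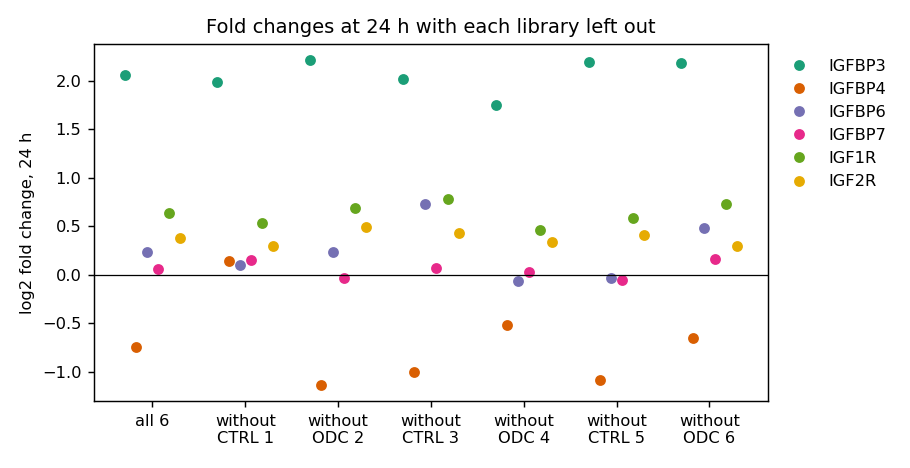
Log2 fold change at 24 h (y axis) of the 6 expressed members with all 6 libraries and with each library left out (x axis). IGFBP3 stays at 1.75 or above, IGF1R and IGF2R stay above 0, and IGFBP4 moves from -0.74 to 0.14 without CTRL library 1.

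Levels of different genes were compared after division by the length of the Ensembl canonical transcript in kilobases. In CTRL at 24 h the mean level was 195 CPM per kb for IGFBP7, 100.5 for IGFBP4, 48.3 for IGFBP3, 22.2 for IGFBP6, 21.7 for IGF2R and 11.4 for IGF1R, all in CPM per kb. The ranges over the libraries overlapped for IGFBP7 and IGFBP4, for IGFBP4 and IGFBP3, and for IGFBP6 and IGF2R. Compared within each library, however, IGFBP7 was above IGFBP4 in all of them. IGFBP3 was above IGFBP6 and IGF2R above IGF1R with no overlap of their ranges. In ODC at 24 h the mean of IGFBP3, 202 CPM per kb (158 to 279.7), was beside that of IGFBP7, 203 CPM per kb (172 to 227), and above IGFBP4 at 60.2 CPM per kb (39.4 to 89.1) with no overlap. At 2 h the mean of IGFBP3 was second to that of IGFBP7 in both groups, at 183.5 CPM per kb in CTRL and 186 CPM per kb in ODC. The binding proteins IGFBP7, IGFBP3 and IGFBP4 were thus above both receptors per length in every group. IGF1R was the lowest of the 6 by its mean in all 4 groups.

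The pattern of IGFBP3 over the libraries was compared with that of each of 12603 genes tested at both times, using log2 CPM centred on the mean of each time point. The 5 genes with the highest Pearson correlation over the 11 libraries were ABCC3, a drug efflux transporter (0.97), C1S, a complement protease (0.96), CXCL16, a transmembrane chemokine (0.95), COL16A1, a collagen (0.94), and PLXNB3, a semaphorin receptor (0.94). Their log2 fold changes at 24 h were 1.75 (SE 0.23), 2.37 (SE 0.36), 3.38 (SE 0.67), 0.67 (SE 0.12) and 1.04 (SE 0.19), in that order. The points share the treatment groups, so genes that separate the groups at 24 h rank high by construction. Within the list, IGF1R was most like IGFBP3 (0.65), followed by IGF2R (0.59), IGFBP6 (0.30) and IGFBP7 (0.20), and IGFBP4 had -0.50.

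The remaining genes of the pathway were taken from 9 lists of 143 genes in the tables, drawn up from general knowledge with earlier results of these data known. Of these, 118 were tested at 24 h, 58 with a log2 fold change above 0 and 60 below, with a median of -0.0022. None of the 118 passed an adjusted p of 0.05 by edgeR's quasi-likelihood test, where 0.189% of all genes did. At an unadjusted p under 0.05 there were 21, of which 17 were higher and 4 lower in ODC (12.2% of all genes), and 5 of them also had a fold change of at least 2 (2.35% of all genes). The groups did not overlap for 26, of which 20 were higher and 6 lower, beside 17.9% of all genes (1195 higher and 1080 lower). DESeq2 passed 5 of the 118 at the adjusted threshold and edgeR's likelihood ratio test 6, where over all 12689 genes they passed 378 and 401 against 24 in the quasi-likelihood test. Adding the pairs of adjacent library numbers as a block passed 13, of which 8 were higher and 5 lower, among them C1S, PLAT, CTSD, EIF4EBP1, ADAM28, PIK3CD and LRP1, while 686 of all genes passed. At an unadjusted p under 0.05 the block raised the pathway count from 21 to 37.

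Proteases that cut the binding proteins, with their inhibitors, held 6 of the 21 genes, 5 higher and 1 lower among 18 tested. C1S, which cuts IGFBP5, was at 2.57 ± 0.81 CPM in CTRL and 13.3 ± 5.93 CPM in ODC at 24 h (SD, n = 3 each), with a log2 fold change of 2.37 (SE 0.36, adjusted p = 0.0655). PLAT, the tissue plasminogen activator, was at 74.4 ± 38.2 CPM in CTRL and 13.6 ± 7.48 CPM in ODC, with a log2 fold change of -2.45 (SE 0.49, adjusted p = 0.107). For both genes the groups did not overlap, and both passed the adjusted threshold in the paired fit, C1S at 0.0102 and PLAT at 0.0365. CTSD, the lysosomal protease cathepsin D that is sorted by mannose 6-phosphate receptors, was at 549.7 ± 111.7 and 913 ± 100.2 CPM, a log2 fold change of 0.73 (SE 0.16, adjusted p = 0.125). ADAM28, a metalloprotease that cuts IGFBP3, was at 4.89 and 9.39 CPM (log2 fold change 0.94, SE 0.25, adjusted p = 0.183). PAPPA, the protease of IGFBP4, and its inhibitor STC2 had log2 fold changes of -0.18 (SE 0.34) and -0.20 (SE 0.32).

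Complex and surface partners of the binding proteins held 4 of the 21 genes, all higher, among 8 tested. LRP1, a scavenger receptor that binds IGFBP3, was at 100.9 ± 41.9 CPM in CTRL and 245 ± 119.8 CPM in ODC (log2 fold change 1.28, SE 0.39, adjusted p = 0.243). ITGAV, an integrin chain, and RXRA, a nuclear receptor that binds IGFBP3, had log2 fold changes of 0.40 (SE 0.12) and 0.36 (SE 0.10), with adjusted p-values of 0.246 and 0.213. Markers of other cell types were read beside these. The fibroblast marker PDGFRB ran from 6.53 to 21.5 CPM in CTRL and from 20.1 to 49.1 CPM in ODC at 24 h, and the summed level of the 5 fibroblast markers overlapped between the groups (66.6 to 142 against 115 to 169 CPM), with COL3A1 at 0 and LUM at most 1 count. The 5 immune markers summed to 5.67 to 6.10 CPM in CTRL and 7.46 to 7.97 CPM in ODC, carried by CD68, with PTPRC at most 2 counts. The part of these cell types in the results was not tested. IGFALS, the third protein of the IGFBP3 complex in blood, had a mean of 0.018 CPM in ODC at 24 h and 0 counts in the other groups.

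The insulin receptor INSR, which pairs with IGF1R chains, was near the floor, at 0.355 ± 0.274 CPM in CTRL and 1.49 ± 1.07 CPM in ODC (log2 fold change 2.06, SE 0.74, adjusted p = 0.304). Its log2 fold change was 1.31 without ODC library 4, and leaving out CTRL library 1 gave 1.51 and CTRL library 3 gave 2.61. Its substrates IRS1 and IRS2 were well counted, with log2 fold changes of -0.09 (SE 0.13) and 0.37 (SE 0.23). The PI3K, AKT and mTOR branch held 4 of the 21 genes, 3 higher and 1 lower among 29 tested. EIF4EBP1, a brake on translation that mTOR phosphorylates, was at 88.2 ± 19.7 CPM in CTRL and 56.6 ± 1.38 CPM in ODC (log2 fold change -0.64, SE 0.16, adjusted p = 0.163). PIK3CD, a catalytic PI3K subunit, and AKT1S1, an mTOR regulator, had log2 fold changes of 0.57 (SE 0.17) and 0.31 (SE 0.10), with adjusted p-values of 0.239 and 0.279. Of 16 FOXO factors and targets 2 were higher and 1 lower at the unadjusted threshold, SESN1 among the former at 14.2 and 22.4 CPM, though its groups overlapped. In the CCN family, whose members carry an IGF-binding domain, 1 of 4 tested genes was higher, NOV at 5.29 and 7.77 CPM. The mannose 6-phosphate sorting list had 1 of 18 and the adaptors 1 of 20, the latter lower, and no tested gene of the 3 in the IGF2 locus list was among the 21.

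**Figure D5:**
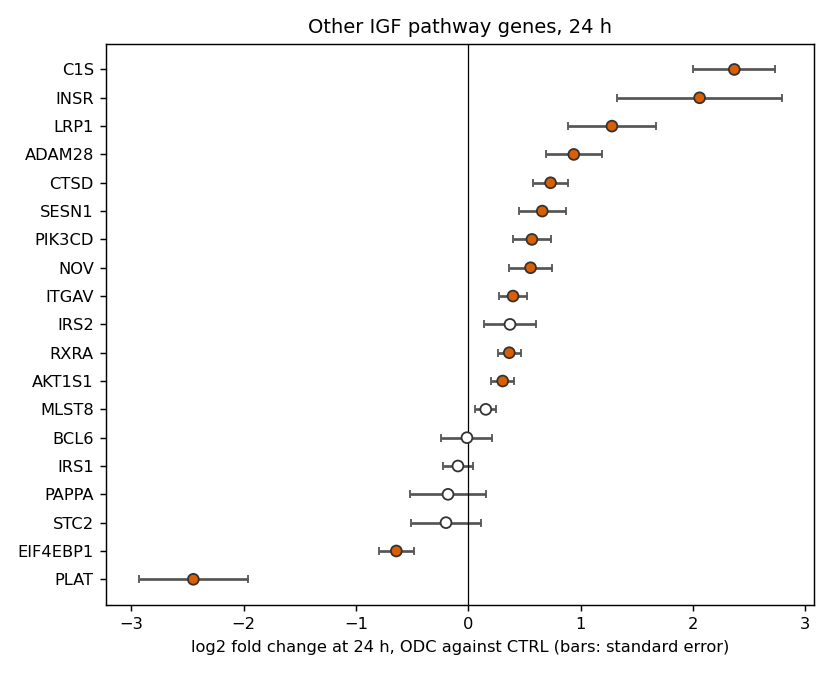
Log2 fold change of ODC against CTRL at 24 h (x axis) with its standard error (bars) for the named pathway genes outside the list of members (y axis). Filled points had an unadjusted p under 0.05, from C1S at 2.37 to PLAT at -2.45, and none passed an adjusted p of 0.05.

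At 2 h 120 pathway genes were tested, 64 above and 56 below 0, with a median log2 fold change of 0.0090. None passed the adjusted threshold by the quasi-likelihood test, the likelihood ratio test or DESeq2, and 3 had an unadjusted p under 0.05 (2.34% of all genes). That count was 5 without ODC library 3 or 4 and 1 without ODC library 5. Leaving out a CTRL library leaves 1 control, so no count is given for those fits. With all libraries, none of the 120 combined an unadjusted p under 0.05 with a fold change of at least 2 (0.308% of all genes). The 3 were BCL6, a transcription repressor and FOXO target, at 8.30 CPM in CTRL and 5.74 CPM in ODC, CTSD at 966 and 1181 CPM, and MLST8, an mTOR subunit, at 43.95 and 51.9 CPM. Their log2 fold changes were -0.53, 0.29 and 0.24 with all libraries and -0.39, 0.28 and 0.21 without CTRL library 1. In the joint fit, the contrast of the 24 h effect with the 2 h effect passed the adjusted threshold for none of 119 pathway genes and for 2 of all 13333 genes.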

How the data were processed

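RNA of Caki-1-SR cells was sequenced from 11 stranded mRNA libraries. The authors aligned reads to hg38 with STAR and counted them per gene with HTSeq (versions 2.7.0f and 0.9.1 in the submitters' processing notes, which also name edgeR 3.26.8), and the authors deposited these raw counts without normalization, 1 table per time. From the counts, ODC was compared with CTRL at each time with edgeR 4.0.16 in R 4.3.3 (quasi-likelihood F test in its earlier form, two-sided, TMM factors of 0.965 to 1.022, filterByExpr at min.count 10 and min.total.count 15, Benjamini-Hochberg adjustment over all genes tested). The difference of the effects came from a joint fit of 11 libraries. Figures used matplotlib 3.10.9 in Python 3.11.15.

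Replicates differed beyond sampling noise, with a chi-square per gene of 19.7 to 61.5 over 10 pairs. The members and gene lists were chosen with earlier results of these data known. Named genes were all members, the pathway genes past an adjusted p of 0.05 or else at most 12 per comparison with the smallest unadjusted p under 0.05, a handful named outright (INSR, IRS1, IRS2, IGF1, PAPPA, STC2, IGFALS), and the 5 genes most correlated with IGFBP3 (log2 CPM, prior count 2). THBS2, AEBP1, A2M and HLA-DRA were named after their values were seen. The labels do not pair the libraries. Within the pairs of adjacent numbers at 24 h the libraries' deviations from their group correlated by 0.20, 0.58 and 0.45. The other CTRL and ODC pairs ran from -0.55 to 0.23, and libraries 1 and 6, at 0.23, were above libraries 1 and 2. Counts from the paired fit are printed beside those from the unpaired fit as an alternative. Alternatives covered filters, scaling, tests (likelihood ratio, DESeq2 1.42.0), the joint fit and each library left out. The statistical steps were tested on simulated data with the same dispersion for every gene and no library that stood apart. Such data do not show how the steps perform at the uneven spread of these libraries.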

Additional observations from a re-analysis of the deposited data

Results flagged for a closer look

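The log2 fold change of IGFBP4 at 24 h minus that at 2 h was -0.91 (SE 0.67). It was picked out because every treated library was below the CTRL mean at 24 h and above it at 2 h. The difference was not tested, since the members were chosen with both contrasts known. Without CTRL library 1 of 24 h, which stood at 426 CPM against 134 and 105 CPM in the other controls, it was -0.01.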

How the results depend on the processing

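The number of pathway genes past an adjusted p of 0.05 at 24 h was 0, and became 2 with every gene of at least 1 count, 6 with the likelihood ratio test, 5 with DESeq2, 4 in the joint fit and 13 with the replicate block, the pairing of adjacent library numbers, with C1S and PLAT among them in each. With each library left out it ran from 0 to 1, the 1 being C1S without ODC library 6. At 2 h it was 0 in all settings that kept both CTRL libraries. The members called were 1 at 24 h, from 0 to 1 with libraries left out, and 0 at 2 h, also with any 1 ODC library left out. Leaving out a CTRL library at 2 h leaves 1 control, so no calls are given for those fits. With CTRL library 1 as the lone control, IGFBP2 and IGFBP5 passed the filter on its counts alone. Their log2 fold changes there, -9.83 and -6.46, restate the counts of that library. With the block 1 member was called at 24 h by the 2-fold rule, but 3 members in place of 1 passed the adjusted threshold alone. The 24 h log2 fold changes of IGFBP3, IGF1R and IGF2R kept their sign in all 17 alternatives, that of IGFBP4 in 16 of 17. Those of IGFBP6 and IGFBP7 kept it in 15 of 17 each. The count of all genes past the adjusted threshold at 24 h, 24 here, was 401 by the likelihood ratio test, 378 by DESeq2, 686 with the block and 2 to 70 with libraries left out. The causes were not tested. At 2 h no pairing could be fitted, since CTRL has 2 libraries and ODC 3. Depth limits statements on IGFBP1, IGFBP2, IGFBP5 and IGF2, which were at or near 0.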
